A study of Mus musculus with 59 samples.

Results

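The CREB, CRTC and SIK regulators are 9 genes of cyclic AMP signalling to the nucleus: the transcription factors Creb1, Crem and Atf1, their coactivators Crtc1, Crtc2 and Crtc3, and the salt-inducible kinases Sik1, Sik2 and Sik3. They were taken by symbol, and all 9 were found among the 21935 Ensembl genes of the deposited count table. All 9 passed the filter on low counts in each fit, and the smallest count of any of them in a library was 35, for Atf1. The 59 RNA-seq libraries come from C57BL/6 mice given a single intraperitoneal injection, either IP118/PY115 or vehicle, with tissue taken 4 h afterwards. On GRCm38 the transcription factors lie as follows: Creb1 (ENSMUSG00000025958) at chr1:64532645-64604548, Crem (ENSMUSG00000063889) at chr18:3266048-3337748, Atf1 (ENSMUSG00000023027) at chr15:100227819-100261244. The coactivators are Crtc1 (ENSMUSG00000003575) at chr8:70382355-70439579, Crtc2 (ENSMUSG00000027936) at chr3:90254163-90264125, Crtc3 (ENSMUSG00000030527) at chr7:80586627-80688877. The kinases are Sik1 (ENSMUSG00000024042) at chr17:31844250-31855804, Sik2 (ENSMUSG00000037112) at chr9:50892801-51009073, Sik3 (ENSMUSG00000034135) at chr9:46012820-46224194. Laser capture took 4 mm² per region and animal from 10 µm frozen sections of the paraventricular nucleus (PVN) and arcuate nucleus (ARC) of the hypothalamus and of the nucleus of the solitary tract (NTS) in the hindbrain. There were 10 IP118/PY115 and 10 vehicle libraries in PVN, 10 and 9 in ARC, and 10 of each in NTS. The series title speaks of obese-diabetic mice and of joint agonism at PYY and GLP-1 receptors. The labels give only the strain for the mice and no dose, age, sex or diet, and they tie no library to an animal.

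In cells, cyclic AMP activates protein kinase A, which phosphorylates CREB on promoters that carry the cyclic AMP response element (CRE). The GLP-1 receptor raises cyclic AMP, while PYY receptors lower it. CREB also needs a CRTC coactivator, and SIKs phosphorylate CRTCs so that 14-3-3 proteins hold them in the cytoplasm. Protein kinase A inhibits SIKs, and the phosphatase calcineurin removes the phosphate from CRTCs, after which CRTCs enter the nucleus. The loop has feedback at the level of transcription: Sik1 is itself a CREB target gene, and Crem has an internal cyclic AMP-responsive promoter that makes the short repressor ICER. Most of the pathway is regulated by phosphorylation and location, which RNA counts do not read.

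Promoter sequence is given for Sik2 and Sik3, the pair of members whose levels moved most closely together across libraries (below). RefSeq windows on GRCm38.p6 ran from 250 bases before to 50 after the transcription start. CRE matches in them are given for 6 of the 9 members: Creb1, Atf1, Crtc1, Crtc3, Sik2 and Sik3. No window of the remaining members is reported here, so the counts below do not cover them. The full CRE, TGACGTCA, was in none of these 6 windows, and it was in 588 of 32851 mouse promoter windows of the same length (1.79%). The half-site TGACG, or CGTCA on the other strand, was in 3 of the 6 and in 6837 of all windows (20.8%). It began at base -90 of Atf1, at -1 and 13 of Sik2, and at -133, -116 and -57 of Sik3, counted from the start as base 1. The Sik2 window lies at chr9:51009024-51009323 on the minus strand and the Sik3 window at chr9:46012570-46012869 on the plus strand, and capitals mark the half-sites.
Sik2: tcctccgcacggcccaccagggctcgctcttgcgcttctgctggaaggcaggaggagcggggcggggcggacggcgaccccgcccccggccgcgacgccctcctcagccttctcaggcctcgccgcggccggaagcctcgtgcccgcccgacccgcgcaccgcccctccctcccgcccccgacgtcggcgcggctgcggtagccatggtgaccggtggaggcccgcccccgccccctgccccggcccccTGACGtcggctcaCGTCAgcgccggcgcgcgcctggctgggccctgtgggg
Sik3: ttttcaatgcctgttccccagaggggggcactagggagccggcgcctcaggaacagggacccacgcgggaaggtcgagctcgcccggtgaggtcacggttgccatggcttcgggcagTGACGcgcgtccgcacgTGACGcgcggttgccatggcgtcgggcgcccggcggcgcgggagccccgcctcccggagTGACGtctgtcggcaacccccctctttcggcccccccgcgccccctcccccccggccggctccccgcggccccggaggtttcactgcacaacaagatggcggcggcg
The windows were GC-rich, at 80.0% for Sik2 and 73.7% for Sik3 against a median of 52.7% over all windows. A match of these letters is a description of sequence and not a measured binding site.

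Library totals ran from 3964093 to 28510118 counts, with medians of 10491077 for PVN, 10392473 for ARC and 11700301.5 for NTS. Markers were highest in their own dissection: the summed level of 5 PVN neuron genes was 11480 to 17950 CPM (counts scaled to a common library total) in IP118/PY115 and 8646 to 21270 CPM in vehicle libraries of PVN. In ARC it was 9.85 to 283 CPM in IP118/PY115 and 9.25 to 473 CPM in vehicle libraries, and the part of this in the contrasts of PVN with ARC was not tested. In NTS it was 2.06 to 101 CPM in IP118/PY115 and 1.61 to 4.55 CPM in vehicle libraries, with 2 of the 5 genes at 0 in all vehicle libraries. Libraries were numbered by order of deposit within their group. Those numbered 1 resembled the opposite treatment in Fosb in NTS and in Zbtb16 in PVN and ARC, apart from IP118/PY115 library 1 of ARC. For PVN and ARC this rests on 1 gene. Sik1 of vehicle library 1 was the lowest of its group in ARC and inside the range of its group in PVN (below). In NTS, the activity gene Fosb was at 0.857 CPM in IP118/PY115 library 1 and at 18.9 to 48.8 CPM in the other 9, and at 39.7 CPM in vehicle library 1 and at 0.141 to 2.70 CPM in the other 9. For Zbtb16, IP118/PY115 library 1 was at 32.96 CPM in PVN and the other 9 at 44.9 to 74.9 CPM, and vehicle library 1 at 45.3 CPM and the other 9 at 11.5 to 36.1 CPM. In ARC, IP118/PY115 library 1 was at 29.6 CPM, within the 21.8 to 58.2 CPM of the other 9, and vehicle library 1 at 49.2 CPM, above the 9.48 to 20.3 CPM of the other 8. All values below keep the deposited labels, and treatment results are given with and without the 6 libraries numbered 1. They were picked on the outcome with earlier results known, so p-values without them are too small.

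Sik3 was the most abundant of the 9 regulators in every region and Sik2 the least, and the members that differed between regions were Sik1, Sik3, Crtc1, Creb1 and Atf1. Sik1 showed the widest range in vehicle libraries, highest in PVN, intermediate in ARC and lowest in NTS. Levels are CPM on library totals adjusted by TMM scaling, and levels of different genes are compared per kilobase (kb) of annotated exon. In PVN vehicle libraries Sik3 averaged 20.3 CPM per kb, followed by Sik1 at 10.6, Crtc1 at 8.85, Crtc2 at 5.57, Creb1 at 4.29, Crem at 3.98, Atf1 at 3.002, Crtc3 at 2.14 and Sik2 at 1.98 CPM per kb. In ARC and NTS vehicle libraries Crtc1, the main CRTC of brain neurons, stood next to Sik3 at 10.96 and 8.59 CPM per kb. Sik1 averaged 6.52 CPM per kb in ARC, after Crtc1, and 3.76 CPM per kb in NTS, after Crtc1, Crtc2 and Creb1. Some neighbours in this order lay closer than the larger SD of the pair: Sik1 and Crtc1 in PVN, Sik1 and Crtc2 in ARC, and Creb1 and Sik1 in NTS, as did Crtc3 and Sik2 in all 3 regions.

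**Figure D1:**
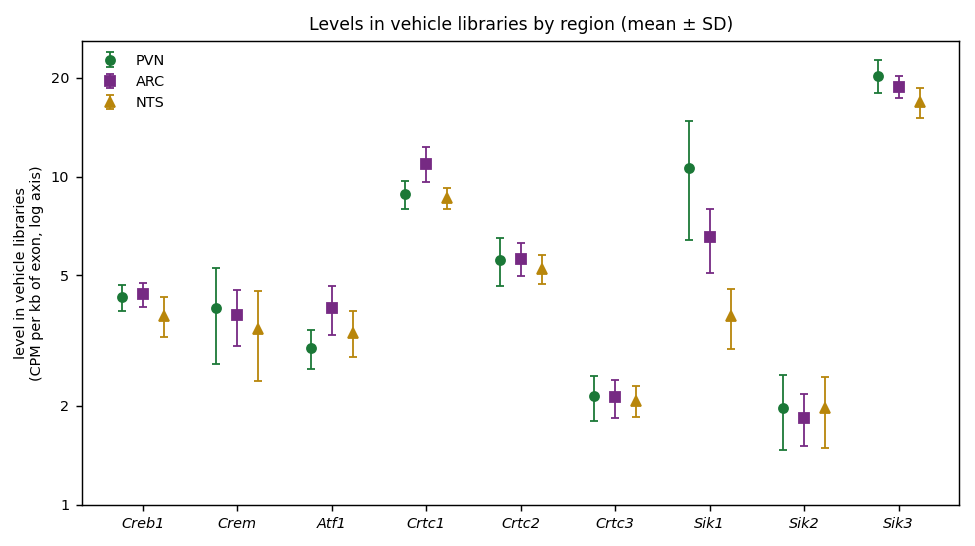
Levels of the 9 genes in vehicle libraries, as mean ± SD in CPM per kb of exon on a log axis, with 10 PVN, 9 ARC and 10 NTS libraries. Sik1 spans 10.6 CPM per kb in PVN to 3.76 in NTS, while Crtc3 and Sik2 lie near 2 CPM per kb in every region.

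Sik1 encodes the SIK that is itself induced by cyclic AMP. In vehicle libraries its level had a median of 50.6 CPM in PVN (32.8 to 104), of 35.6 CPM in ARC (21.4 to 44.7) and of 18.6 CPM in NTS (14.1 to 28.5). Every PVN vehicle library was above every NTS vehicle library, while PVN and ARC overlapped. How many of all genes separate PVN from NTS vehicle libraries in this way was not counted. In the joint edgeR fit of the 59 libraries, Sik1 in IP118/PY115 libraries was higher in PVN than in NTS by a log2 fold change of 0.97 ± 0.21 (SE, adjusted p (FDR) = 7.97e-05) and in PVN than in ARC by 0.70 ± 0.21 (FDR = 0.00435), and ARC over NTS was 0.27 ± 0.21 (FDR = 0.271; 95% interval -0.16 to 0.69). In vehicle libraries PVN was higher than NTS by 1.52 ± 0.22 (FDR = 2.95e-08) and than ARC by 0.71 ± 0.22 (FDR = 0.00578), and ARC was higher than NTS by 0.81 ± 0.22 (FDR = 0.0014). In PVN, Sik1 also varied most of the 9 between libraries of a group, with a coefficient of variation of 39.5% in PVN IP118/PY115 and 39.6% in PVN vehicle libraries. The tests between regions take libraries as independent although animals may have given several regions, so their p-values may be too small or too large.

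Sik3 had a vehicle mean of 189 ± 21.6 CPM in PVN (SD, n = 10), 175 ± 12.95 CPM in ARC (n = 9) and 157 ± 16.2 CPM in NTS (n = 10). In IP118/PY115 libraries all 3 contrasts of Sik3 passed: a log2 fold change of 0.33 ± 0.06 for PVN over NTS, 0.19 ± 0.06 for PVN over ARC and 0.14 ± 0.06 for ARC over NTS (FDR = 3.74e-06, 0.00689 and 0.0404). Among vehicle libraries it was higher in PVN than in NTS (0.27 ± 0.06, FDR = 1.29e-04) and in ARC than in NTS (0.16 ± 0.06, FDR = 0.0234), and PVN over ARC was 0.11 ± 0.06 (FDR = 0.144). With IP118/PY115, the ARC over NTS contrast was 0.13 (FDR = 0.0687) without the libraries numbered 1, and the PVN over ARC contrast was 0.13 (FDR = 0.0673) when scaled by library totals alone.

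Crtc1 was lower in PVN than in ARC and higher in ARC than in NTS. It averaged 99.0 ± 9.65 CPM in PVN (SD, n = 10), 122.5 ± 14.96 CPM in ARC (n = 9) and 96.1 ± 7.31 CPM in NTS vehicle libraries (n = 10). The log2 fold change of PVN over ARC was -0.34 ± 0.06 in IP118/PY115 libraries (FDR = 2.96e-06) and -0.31 ± 0.06 in vehicle libraries (FDR = 4.21e-05). ARC over NTS was 0.38 ± 0.06 in IP118/PY115 libraries (FDR = 1.96e-07) and 0.35 ± 0.06 in vehicle libraries (FDR = 2.13e-06). Atf1, a close relative of CREB, was likewise lower in PVN than in ARC: 9.18 ± 1.23 CPM in PVN vehicle libraries and 12.2 ± 2.07 CPM in ARC vehicle libraries, with PVN over ARC at -0.39 ± 0.12 in IP118/PY115 libraries (FDR = 0.00644) and -0.40 ± 0.13 in vehicle libraries (FDR = 0.0077).

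Creb1, the CREB gene itself, was lower in NTS than in the hypothalamus. It averaged 58.9 ± 5.42 CPM in PVN, 60.1 ± 5.07 CPM in ARC and 51.7 ± 7.17 CPM in NTS vehicle libraries (SD). PVN over NTS was 0.19 ± 0.06 (FDR = 0.00929) and ARC over NTS 0.17 ± 0.06 (FDR = 0.0164) in IP118/PY115 libraries, and 0.19 ± 0.07 (FDR = 0.012) and 0.22 ± 0.07 (FDR = 0.00381) in vehicle libraries. The IP118/PY115 contrast of ARC over NTS was 0.13 (FDR = 0.0723) without the libraries numbered 1, and the vehicle contrast of PVN over NTS was 0.14 (FDR = 0.0559) under scaling by library totals alone. Crem, Crtc2, Crtc3 and Sik2 passed in no contrast between regions. Their vehicle means ran from 20.2 to 23.4 CPM for Crem, from 21.4 to 22.98 CPM for Crtc2, from 20.5 to 21.1 CPM for Crtc3 and from 17.6 to 18.8 CPM for Sik2, within the SD of the groups.

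Of the 9 members, 4 passed between PVN and ARC, 3 between PVN and NTS and 3 between ARC and NTS in IP118/PY115 libraries, where 48.7%, 58.8% and 63.8% of the 14379 genes tested passed. In vehicle libraries 3, 3 and 4 members passed, against 46%, 56.1% and 61.7% of all genes. For ARC over NTS with IP118/PY115, 1 member, Crtc1, passed without the libraries numbered 1, where 62% of all genes passed. The members' shares were under those of all genes. In bulk tissue, fewer cells of a type and less RNA per cell cannot be told apart. The summed level of 6 mature oligodendrocyte markers had a median of 929 CPM in PVN, 754 CPM in ARC and 5066 CPM in NTS vehicle libraries, and that of 5 pan-neuronal markers 2436, 1783 and 3105 CPM. The part of cell composition in the differences between regions was not tested.

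No member passed the test for IP118/PY115 against vehicle in any region when all libraries were used, and the nearest were Sik1 and Crem in NTS. Both averaged higher in IP118/PY115 than in vehicle libraries of NTS, at 28.6 against 19.3 CPM for Sik1 and 27.8 against 20.2 CPM for Crem. They are also the members described above with cyclic AMP-responsive transcription, and its part in these values was not tested. The other 7 members stayed within a log2 fold change of -0.06 to 0.17 in all 3 regions, and within -0.03 to 0.23 without the libraries numbered 1. In PVN, ARC and NTS alike 0 of 9 members were called with edgeR, and also with DESeq2 and limma-voom. The number at an unadjusted p under 0.05 was 0 for PVN, 0 for ARC and 2 for NTS. Over all genes tested, edgeR called 0.656% for PVN, 0% for ARC and 0% for NTS. The ARC and NTS counts of 0 stood beside 971 and 795 genes at an unadjusted p under 0.05, 59 and 66 genes called by DESeq2, and 28 and 53 by limma-voom.

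**Figure D2:**
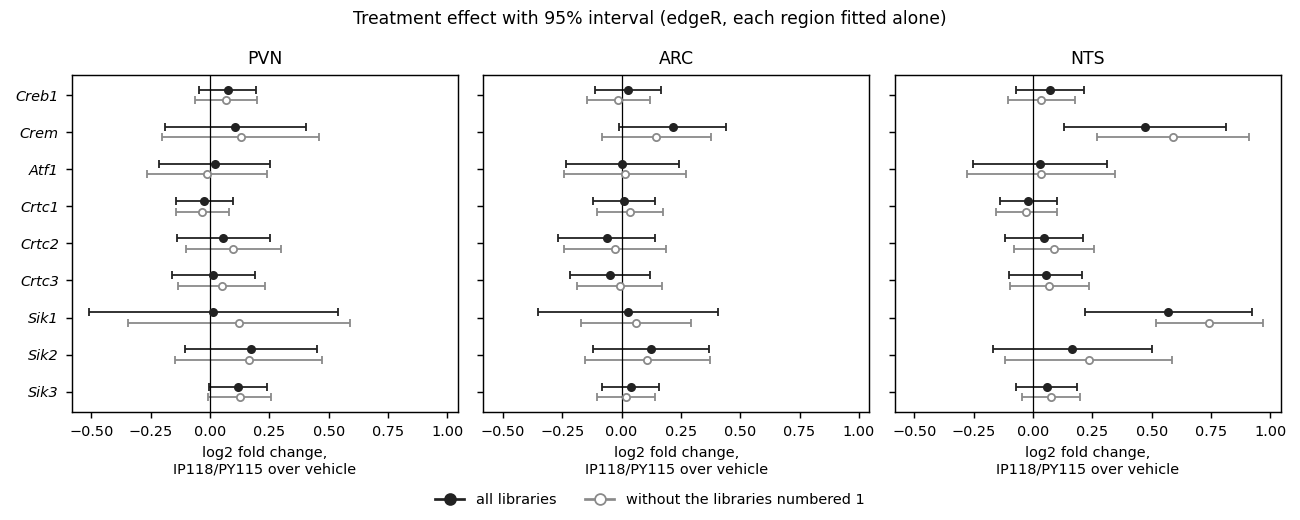
Log2 fold change of IP118/PY115 over vehicle for the 9 genes in each region, with its 95% interval from edgeR, in all libraries (filled) and without the libraries numbered 1 (open). Only Sik1 and Crem in NTS have intervals wholly above 0, from 0.22 to 0.92 and from 0.13 to 0.81 with all libraries.

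Sik1 in NTS was at 10.4, 22.4, 23.4, 25.4, 29.997, 31.4, 34.2, 34.5, 35.4 and 38.5 CPM in the 10 IP118/PY115 libraries, and at 14.1, 14.9, 17.7, 18.6, 18.6, 18.6, 18.7, 21.5, 21.7 and 28.5 CPM in the 10 vehicle libraries. The lowest IP118/PY115 library and the highest vehicle library are those numbered 1, and with them the groups overlapped. Apart from them every IP118/PY115 library was above every vehicle library. Those libraries were picked on the outcome, so this separation is not independent of the choice. The share of all genes that separate in this way was not counted. The means were 28.6 ± 8.36 CPM with IP118/PY115 and 19.3 ± 4.02 CPM with vehicle (SD, n = 10 each). The log2 fold change was 0.57 ± 0.17, or 1.48-fold, with an unadjusted p of 0.00288, the place 131 of 13696 genes, and an FDR of 0.300. Without the libraries numbered 1 it was 0.74 ± 0.11, or 1.67-fold, and passed with an FDR of 1.73e-04 (9 against 9 libraries). There it was the 1 member of 9 called in NTS, where 1.18% of genes were called. Leaving out IP118/PY115 library 1 alone gave 0.67 (FDR = 0.00597), and leaving out vehicle library 1 alone gave 0.65 (FDR = 0.0933). Leaving out each library in turn, the FDR ran from 0.00597 to 0.470, and over the other alternatives from 1.73e-04 to 0.351.

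Cell markers of the NTS libraries are given beside this result. The 5 NTS neuron markers summed to 1220 CPM in IP118/PY115 library 1 and to 867 to 1243 CPM in the other 9, and to 1293 CPM in vehicle library 1 and to 911 to 1288 CPM in the other 9. Markers of ependyma and tanycytes summed to 44.9 CPM in IP118/PY115 library 1 and to 22.3 to 32.7 CPM in the other 9, and to 27.9 CPM in vehicle library 1 and to 29.8 to 51.3 CPM in the other 9. Vehicle library 1 also lay outside the other 9 for endothelium (79.3 against 84.1 to 126.5 CPM) and astrocytes (1748 against 1761 to 2561 CPM). The same held for oligodendrocyte precursors (270.1 against 180.1 to 255.6 CPM). For these 3 lists IP118/PY115 library 1 lay inside the range of its group. The part of these in the result was not tested. Mature oligodendrocyte markers summed to 1933 to 9099 CPM in IP118/PY115 and to 2109 to 6397 CPM in vehicle libraries of NTS. With the oligodendrocyte score as a covariate Sik1 in NTS was 0.60 ± 0.17 (FDR = 0.181) and Crem 0.52 ± 0.14 (FDR = 0.157).

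In PVN and ARC, no difference in Sik1 between the groups was detectable. In PVN its level was 17.96 to 90.1 CPM, with a median of 53.1, in IP118/PY115 libraries and 32.8 to 104 CPM, with a median of 50.6, in vehicle libraries. The log2 fold change was 0.01 ± 0.25 (FDR = 0.996), with a 95% interval from -0.51 to 0.54. In ARC the level was 13.99 to 45.2 CPM, with a median of 35.98, in IP118/PY115 libraries and 21.4 to 44.7 CPM, with a median of 35.6, in vehicle libraries, with a log2 fold change of 0.03 ± 0.18 (FDR = 0.985; interval -0.35 to 0.40). IP118/PY115 library 1 held the lowest Sik1 of its group in all 3 regions. Vehicle library 1 held the highest of its group in NTS, the lowest in ARC, at 21.4 CPM, and a value of 54.9 CPM in PVN, inside the range of the other 9. Without the libraries numbered 1 the changes were 0.12 ± 0.22 in PVN and 0.06 ± 0.11 in ARC.

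Crem in NTS was at 16.1, 20.1, 23.3, 25.01, 25.9, 28.96, 32.9, 32.9, 36.5 and 36.9 CPM with IP118/PY115 and at 13.6, 15.1, 15.6, 15.98, 18.6, 19.7, 20.2, 24.5, 25.03 and 33.9 CPM with vehicle. The groups overlapped, and 9 of 10 IP118/PY115 libraries were above the vehicle median. The means were 27.8 ± 6.98 CPM with IP118/PY115 and 20.2 ± 6.15 CPM with vehicle (SD, n = 10 each). The log2 fold change was 0.47 ± 0.16 (unadjusted p = 0.00876, FDR = 0.458), and 0.59 ± 0.15 (FDR = 0.0707) without the libraries numbered 1, where 5 of 9 IP118/PY115 libraries were above all 9 vehicle libraries. In ARC, Crem averaged 26.01 ± 4.90 CPM with IP118/PY115 and 22.3 ± 4.32 CPM with vehicle (n = 10 and 9), a log2 fold change of 0.21 ± 0.11 (FDR = 0.717) that was 0.15 ± 0.11 without the libraries numbered 1. In PVN it averaged 25.1 ± 3.92 CPM with IP118/PY115 and 23.4 ± 7.66 CPM with vehicle (0.11 ± 0.14, FDR = 0.892; 0.13 ± 0.16 without the libraries numbered 1). The counts are per gene, so ICER and full-length Crem transcripts are added together. Of the annotated Crem exon bases, 8.01% overlap a gene on the other strand, Gm6225, and since the strand setting of the counting is not given the 2 cannot be told apart there.

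**Figure D3:**
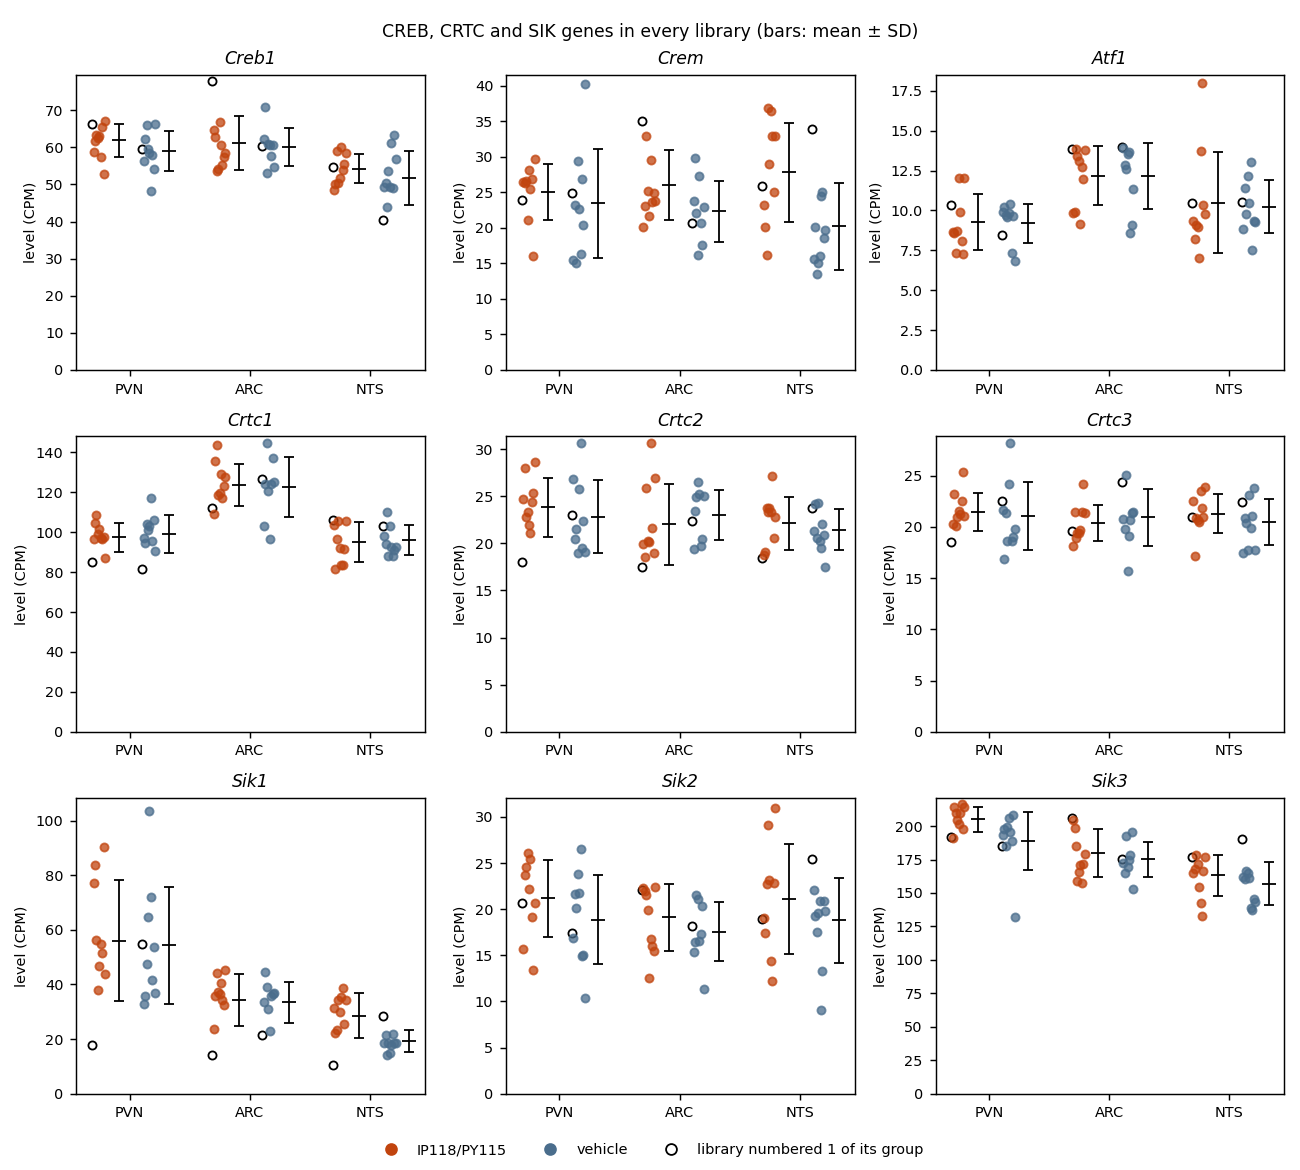
Level of each of the 9 genes in every library in CPM, with IP118/PY115 left of vehicle within each region, bars for mean ± SD, and open circles for the libraries numbered 1. In NTS the open circle of Sik1 is the lowest IP118/PY115 library, at 10.4 CPM, and the highest vehicle library, at 28.5 CPM.

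Sik3, the most abundant SIK, averaged 205 ± 9.38 CPM with IP118/PY115 and 189 ± 21.6 CPM with vehicle in PVN (SD, n = 10 each). The IP118/PY115 libraries ran from 191 to 217 CPM with a median of 207, and the vehicle libraries from 132 to 208 CPM with a median of 194. In PVN 5 of 10 IP118/PY115 libraries were above all 10 vehicle libraries, and the log2 fold change was 0.12 ± 0.06 (unadjusted p = 0.0571, FDR = 0.561; interval -0.0038 to 0.24). Vehicle library 10 alone held the value of 132 CPM, and the change without it was 0.07. That library also stood apart in cell markers: astrocyte markers summed to 1853 CPM there and to 1040 to 1307 CPM in the other 9 PVN vehicle libraries, microglia markers to 194 against 89.1 to 125 CPM, and PVN neuron markers to 8646 against 10010 to 21270 CPM. The part of these in its Sik3 level was not tested. In ARC and NTS the log2 fold changes of Sik3 were 0.04 ± 0.06 and 0.06 ± 0.06.

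Sik2 averaged 21.2 ± 4.16 CPM with IP118/PY115 and 18.8 ± 4.81 CPM with vehicle in PVN, 19.1 ± 3.61 CPM with IP118/PY115 and 17.6 ± 3.20 CPM with vehicle in ARC, and 21.1 ± 5.94 CPM with IP118/PY115 and 18.8 ± 4.61 CPM with vehicle in NTS. Its mean was the higher with IP118/PY115 in each region, by a log2 fold change of 0.17 ± 0.14 in PVN, 0.12 ± 0.12 in ARC and 0.17 ± 0.16 in NTS, each smaller than the spread between libraries (FDR = 0.792, 0.861 and 0.999). Of its exon bases, 14.98% overlap Ppp2r1b on the other strand, with the same limit as for Crem.

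No treatment difference was detectable for the other transcription factors. Creb1 averaged 61.8 ± 4.42 CPM with IP118/PY115 and 58.9 ± 5.42 CPM with vehicle in PVN, 61.2 ± 7.31 CPM with IP118/PY115 and 60.1 ± 5.07 CPM with vehicle in ARC, and 54.3 ± 4.01 CPM with IP118/PY115 and 51.7 ± 7.17 CPM with vehicle in NTS. Its 95% intervals of the log2 fold change, -0.05 to 0.19 in PVN, -0.11 to 0.16 in ARC and -0.07 to 0.21 in NTS, all held 0. Atf1, the least counted member, averaged 9.29 ± 1.74 CPM with IP118/PY115 and 9.18 ± 1.23 CPM with vehicle in PVN, 12.2 ± 1.85 CPM with IP118/PY115 and 12.2 ± 2.07 CPM with vehicle in ARC, and 10.5 ± 3.15 CPM with IP118/PY115 and 10.2 ± 1.64 CPM with vehicle in NTS, with log2 fold changes of 0.02 ± 0.11, 0.00 ± 0.12 and 0.03 ± 0.14.

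The CRTC coactivators did not differ detectably either. Crtc1 averaged 97.4 ± 7.13 CPM with IP118/PY115 and 99.0 ± 9.65 CPM with vehicle in PVN, 123.5 ± 10.7 CPM with IP118/PY115 and 122.5 ± 14.96 CPM with vehicle in ARC, and 94.97 ± 9.97 CPM with IP118/PY115 and 96.1 ± 7.31 CPM with vehicle in NTS. Its log2 fold changes were -0.02 ± 0.06, 0.01 ± 0.06 and -0.02 ± 0.06, and every 95% interval lay within -0.14 to 0.14. Crtc2, best known from the liver, had log2 fold changes of 0.06 ± 0.10 in PVN, -0.06 ± 0.10 in ARC and 0.05 ± 0.08 in NTS. Crtc3 had 0.01 ± 0.09, -0.05 ± 0.08 and 0.05 ± 0.07. These intervals bound changes in RNA only, since CRTCs are controlled by phosphorylation.

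For the 9 members together the median log2 fold change was 0.06 for PVN, 0.03 for ARC and 0.06 for NTS, beside -0.02, 0.00 and 0.00 over all genes tested. Members above 0 numbered 8, 7 and 8 of 9, where 42.4%, 50.1% and 50.2% of all genes were above 0. With the libraries numbered 1 left out, called members numbered 0 of 9 in PVN and 0 of 9 in ARC, where 3.22% and 1.14% of all genes were called.

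The treatment effects of Sik1 and Crem had larger estimates in NTS than in PVN and ARC, but the difference itself did not pass a test. The effect of IP118/PY115 on Sik1 in PVN minus that in NTS was -0.56 ± 0.30 (unadjusted p = 0.0687; interval -1.16 to 0.04), and in ARC minus that in NTS -0.55 ± 0.31 (unadjusted p = 0.0808). For Crem the values were -0.37 ± 0.21 and -0.26 ± 0.21. With all libraries none of the 9 members was called for a difference between effects with edgeR or DESeq2, and none had an unadjusted p under 0.05 with edgeR. Over all genes edgeR called 0.0487% for PVN minus ARC, 0.0904% for PVN minus NTS and 0% for ARC minus NTS, the last beside 540 genes at an unadjusted p under 0.05 and 10 called by DESeq2. Without the libraries numbered 1, Sik1 had -0.62 ± 0.24 for PVN minus NTS (unadjusted p = 0.0117, FDR = 0.524) and -0.69 ± 0.24 for ARC minus NTS (unadjusted p = 0.00676, FDR = 0.511). Crem then had -0.47 ± 0.22 for PVN minus NTS (unadjusted p = 0.0342, FDR = 0.773) and -0.45 ± 0.22 for ARC minus NTS (unadjusted p = 0.043, FDR = 0.995). Both genes were thus under an unadjusted p of 0.05 in these comparisons, and no member was called, where 0.362%, 0.432% and 0.244% of all genes were called.

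Across the 59 libraries, the genes whose level followed each member most closely were found from log2 CPM taken as deviations from the mean of the region, among the 11709 genes averaging 5 CPM or more. For Sik1 these were the orphan receptor gene Nr4a1 (Pearson r = 0.856), the small GTPase gene Rrad (0.768) and the clock gene Per1 (0.766). The correlation of Sik1 with Nr4a1 lay between 0.634 and 0.973 within each of the 6 groups of 9 or 10 libraries. These groups include the libraries numbered 1. Across the 53 libraries without those, r was 0.826, and within groups it was not computed. For Crem they were the synaptotagmin gene Syt4 (0.662), the prohormone convertase gene Pcsk1 (0.647) and Taf9b (0.615). For Sik3 they included Spock2 (0.812) and Dync1h1 (0.802), and for Sik2 Mtmr9 (0.802), Kcnk9 (0.797) and Ptprn2 (0.796). Crtc1 was most like Prrc2a (0.740), Cul7 (0.727) and Zswim8 (0.719), and Crtc2 like Snrnp70 (0.672), Myo9b (0.660) and Csf2ra (0.639). For Crtc3 they were B4galnt1 (0.564), Tmem201 (0.521) and Atp13a1 (0.518), for Creb1 Hdgfl3 (0.619), Actr2 (0.591) and Hook3 (0.590), and for Atf1 Arl6ip5 (0.528), Usp7 (0.507) and Rbm6 (0.505). Among members, the pair of Sik2 and Sik3 had the highest r, 0.705, and Creb1 and Crtc1 the lowest, -0.408, while Sik1 and Crem had 0.216. All points share their library, its depth and its scaling, so these values are descriptions without a test.

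**Figure D4:**
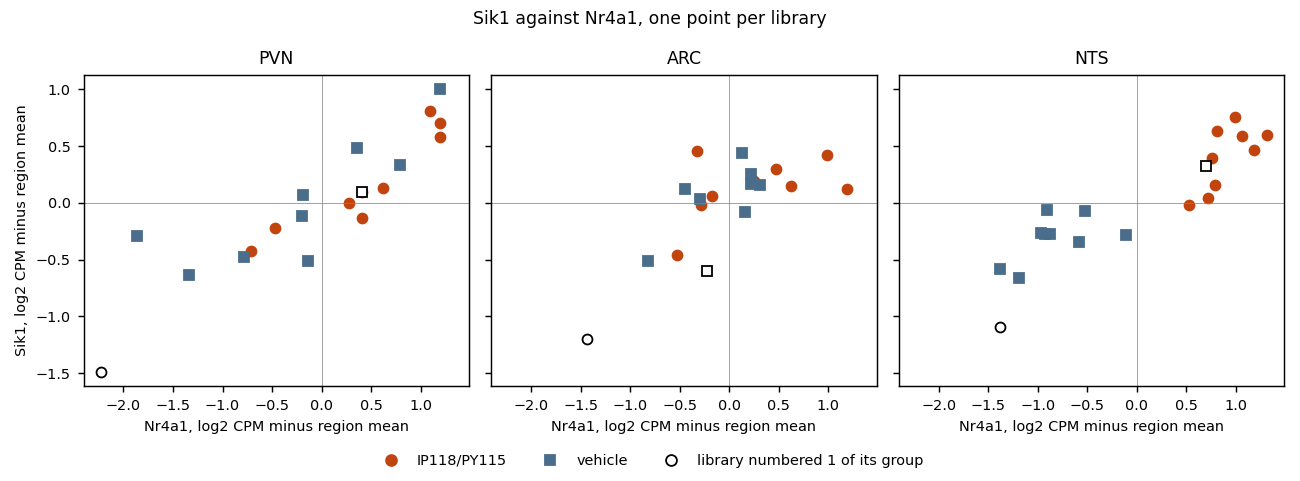
Sik1 against Nr4a1 in each library, both as log2 CPM minus the mean of the region, with IP118/PY115 as circles, vehicle as squares and the libraries numbered 1 open. In NTS the 2 groups separate along both axes apart from the open symbols, which were picked on the outcome, while in PVN and ARC they are mixed.

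Among other genes of the pathway, the CREB target genes had the list median farthest from 0, in NTS. Of 29 tested there, 26 were higher with IP118/PY115 and 3 lower, where 50.2% of all genes were above 0. The median log2 fold change was 0.46 beside 0.00 over all genes. With all libraries 0 of the 29 passed, as did 0% of all genes. At an unadjusted p under 0.05 were 18 of the 29 and 5.8% of all genes. The smallest p belonged to Nr4a1 (1.39 ± 0.29, FDR = 0.101), the related receptor gene Nr4a3 (1.17 ± 0.27, FDR = 0.142), the AP-1 gene Junb (1.33 ± 0.30, FDR = 0.142) and the synaptic pentraxin gene Nptx2 (1.36 ± 0.33, FDR = 0.165). With those numbered 1 excluded, 14 of 29 passed, all higher, with a median of 0.62, where 1.18% of all genes passed. The libraries numbered 1 stood apart in NTS on Fosb, Fos, Junb and Nr4a1, which are in this list. This count and median are thus not independent of the choice of libraries. Sik1 in NTS, which is not in the list, was at 0.57 with all libraries and at 0.74 without those numbered 1. For Sik1 too, those were the lowest IP118/PY115 and the highest vehicle library of NTS. Its value without them is thus not independent of the choice either.

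In PVN 20 of 29 CREB target genes were higher and 9 lower (median 0.15), where 42.4% of all genes were above 0. At an unadjusted p under 0.05 were 10 of the 29 and 9.34% of all genes. Of the 29, 1 passed, where 0.656% of all genes passed: Nptx2 rose by 1.33 ± 0.28 (FDR = 0.0299). The activity gene Arc was next, at 1.04 ± 0.27 (FDR = 0.0878). In ARC 22 of 27 were higher and 5 lower (median 0.17), where 50.1% of all genes were above 0. There 0 of the 27 passed, as did 0% of all genes. At an unadjusted p under 0.05 were 4 of the 27 and 7.2% of all genes. The smallest p was that of the AP-1 gene Fosl2 (0.84 ± 0.21, FDR = 0.187). Leaving out the libraries numbered 1, 6 of 29 passed in PVN and 2 of 27 in ARC, all higher, where 3.22% and 1.14% of all genes passed. The list was written with earlier results of these data known, so its direction is not independent evidence.

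Genes related to CREB or acting with CREB, CRTCs and SIKs formed 8 further lists. In each of them 0 genes passed in any region with all libraries, and the list medians lay between -0.10 and 0.08. Over all genes, edgeR then called 0.656% in PVN and 0% in ARC and NTS. Any list would thus hold 0 in ARC and NTS. These lists were 13 CREB family relatives, 18 CREB kinases, 7 protein kinase A regulatory subunits and inhibitors, both CBP-family coactivators, 5 genes of the LKB1 complex that activates SIKs, 7 14-3-3 genes, 5 calcineurin subunits and 4 class IIa histone deacetylases, which SIKs also phosphorylate. The smallest p among them was that of Prkar2b, a regulatory subunit of protein kinase A, in ARC (-0.26 ± 0.07, FDR = 0.164). Without the libraries numbered 1, the kinase gene Camk1g passed in PVN (0.36 ± 0.08, FDR = 0.00741) and ARC (0.43 ± 0.08, FDR = 0.0013), Rps6ka5 in PVN (-0.25 ± 0.07, FDR = 0.0415), and Creb3l2 (0.38 ± 0.08, FDR = 0.0106) and Prkar2b (-0.30 ± 0.07, FDR = 0.0159) in ARC. In these fits 3.22% of all genes passed in PVN and 1.14% in ARC.

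**Figure D5:**
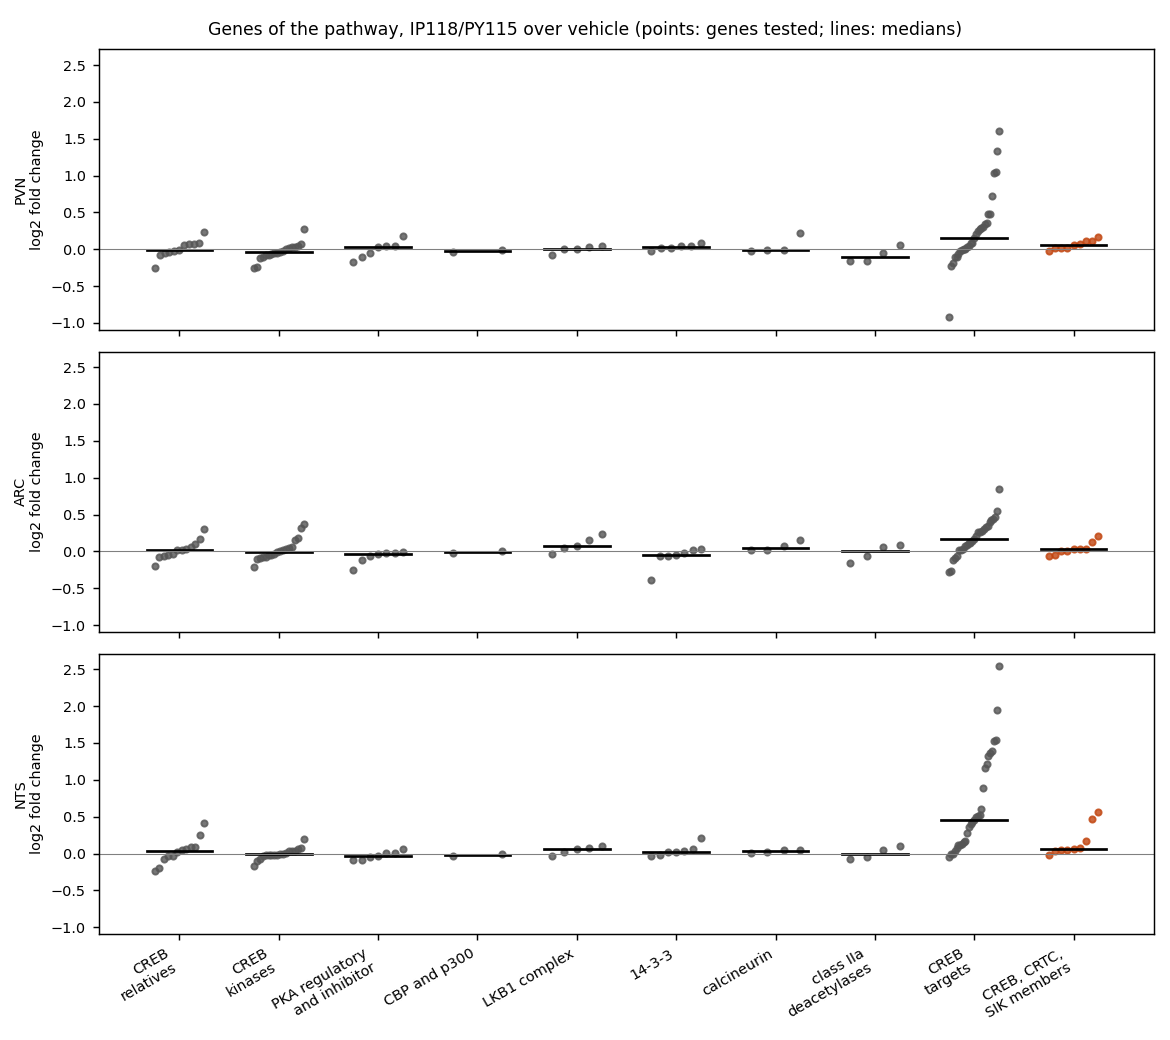
Log2 fold change of IP118/PY115 over vehicle for each tested gene of 9 pathway lists and for the 9 members, in PVN, ARC and NTS with all libraries, with lines at the medians. The CREB target genes have a median of 0.46 in NTS, against 0.15 in PVN and 0.17 in ARC, while the members lie near 0 apart from Sik1 and Crem in NTS.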

How the data were processed

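The files hold raw counts of reads for each gene in each library, which the authors deposited without normalization. Per the submitters' processing notes, bcl2fastq 2.20.0.422 and STAR 2.5.2a were used, with GRCm38. The read counter, its strand setting and its annotation are not given in the sources used here. A stranded mRNA kit was used, per the labels' protocols. Symbols, coordinates and exon lengths were taken from GENCODE M21 on GRCm38, which matched 21858 of 21935 IDs, and promoter windows from RefSeq (GRCm38.p6). No window of Crem, Crtc2 or Sik1 is reported here, so the CRE counts leave these members open.

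Treatment was tested within each region with the robust quasi-likelihood test of edgeR 4.0.16 (R 4.3.3), two-sided, after filterByExpr (minimum count 10, minimum total 15) and TMM scaling. A gene was called at a Benjamini-Hochberg adjusted p (FDR) under 0.05 over all genes tested. Contrasts between regions, and between treatment effects, used 1 model of all 59 libraries. CPM use TMM-adjusted totals, with a prior count of 0.5 on the log2 scale. Scripts were tested on simulated data. Libraries were numbered by order of deposit. The labels tie none to an animal, so p-values measure the spread between libraries, which may be technical.

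All 9 members were named whatever their values, with the 3 genes most like each (1 of them is not reported here) and up to 4 genes of smallest p per pathway list and region. Members and lists were chosen with earlier results of these data known. Alternatives were DESeq2 1.42.0, limma-voom (limma 3.58.1), RLE factors, library totals alone, no filter, 20 counts in 9 libraries, an FDR of 0.1, covariates, and libraries left out.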

Additional observations from a re-analysis of the deposited data

Results flagged for a closer look

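In 54 groups of a member, region and treatment, 3 held a library far from the others of its group, by Dixon's test of the gap to the nearest library; chance flags about 1 group in 20. Sik1 in NTS vehicle library 1 stood at 28.5 CPM, with the next at 21.7 CPM and the lowest at 14.1 CPM. This is the library numbered 1 that lay on the IP118/PY115 side for Fosb. Crtc3 in NTS IP118/PY115 library 3 stood at 17.1 CPM, with the next at 20.5 CPM and the highest at 23.9 CPM. Sik3 in PVN vehicle library 10 stood at 132 CPM, with the next at 185 CPM and the highest at 208 CPM; the same library had the highest Crem of its group, 40.2 CPM, and the lowest Sik2 and Atf1, 10.4 and 6.83 CPM.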

How the results depend on the processing

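No paired analysis was possible because replicate numbers are only the order of deposit and the labels tie no libraries to an animal. Over the alternatives, 258 of 279 values of the treatment effect of the 9 members kept direction and side of the threshold. For region contrasts it was 171 of 176, counted only for members called in that pair of regions with vehicle or with IP118/PY115. Region contrasts of the other members are not in this count. Sik1 in NTS ran from 0.51 to 0.74 over the alternatives and from 0.51 to 0.67 when each library was left out, and Crem in NTS from 0.47 to 0.59 and from 0.42 to 0.58. Members called in NTS numbered 1 without the 6 libraries numbered 1 and 0 to 1 when each library was left out. Without those 6, 1 of 9 members was called for ARC over NTS with IP118/PY115, against 3 of 9 with all libraries, where 62% and 63.8% of all genes were called. Without library numbers 5553 to 5557, which are vehicle only, Sik3 passed for PVN over ARC in vehicle libraries (0.15, FDR = 0.0443). No NTS library carried these numbers or fell under 0.5 of the median total, so those alternatives gave no NTS value.

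The sign of small effects turned, with no such value past the threshold, and the causes were not tested. Without the libraries numbered 1, log2 values were -0.013 for Atf1 in PVN, -0.014 for Creb1 in ARC, 0.067 for Sik1 in PVN minus ARC. Without library numbers 5553 to 5557, log2 values were -0.054 for Atf1 in PVN, -0.011 for Crtc2 in PVN, -0.049 for Crtc3 in PVN, -0.12 for Sik1 in PVN, -0.060 for Atf1 in ARC, 0.079 for Crem in PVN minus ARC. Without libraries under 0.5 of the median total, log2 values were -0.032 for Crtc3 in PVN, -0.076 for Sik1 in PVN. With log10 total as a covariate, log2 values were -0.0035 for Sik1 in PVN, -0.016 for Crtc1 in ARC. With the oligodendrocyte score as a covariate, log2 values were -0.0083 for Crtc2 in PVN, -0.015 for Crtc3 in PVN, -0.088 for Sik1 in PVN, -2.23e-04 for Creb1 in ARC, -0.0086 for Sik3 in ARC. With limma-voom, log2 values were -0.064 for Atf1 in PVN, -0.16 for Sik1 in PVN, -0.021 for Creb1 in ARC, -0.071 for Atf1 in NTS. With DESeq2, log2 values were 0.0056 for Sik1 in PVN minus ARC. With each library left out in turn, the ranges that crossed 0 were -0.046 to 0.046 for Atf1 in ARC, -0.083 to 0.079 for Atf1 in NTS, -0.029 to 0.056 for Atf1 in PVN, -0.018 to 0.059 for Creb1 in ARC, -0.023 to 0.046 for Crtc1 in ARC, -0.039 to 0.0059 for Crtc1 in NTS, -0.053 to 0.0079 for Crtc1 in PVN, -0.0086 to 0.070 for Crtc3 in PVN, -0.039 to 0.12 for Sik1 in ARC, -0.078 to 0.18 for Sik1 in PVN.

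Counts over all genes in PVN, ARC and NTS, 88, 0 and 0 as reported, were 209, 59 and 66 with DESeq2, 537, 28 and 53 with limma-voom, 175, 14 and 6 at an FDR of 0.1, 55, 17 and 3 with the oligodendrocyte score and 429, 153 and 162 without the libraries numbered 1. The PVN count was 12 without numbers 5553 to 5557, 9 without shallow libraries and 6 with log10 total. With each library left out it ran from 8 to 276, and from 0 to 85 in ARC and 0 to 92 in NTS, highest in each region without vehicle library 1. Counts for PVN minus ARC, PVN minus NTS and ARC minus NTS, 7, 13 and 0, were 15, 20 and 10 with DESeq2 and 52, 62 and 35 without the libraries numbered 1. PVN minus ARC gave 4 with no filter, 0 without numbers 5553 to 5557 and 2 without shallow libraries, and PVN minus NTS 4 and 2 under the last 2. Scaling by library totals turned the split of PVN over ARC calls with IP118/PY115, 3546 higher and 3459 lower, to 2847 and 4528, and with vehicle, 3572 and 3038, to 2849 and 4006. It also turned ARC over NTS with IP118/PY115, 4420 and 4758, to 4779 and 4439, and with vehicle, 4345 and 4529, to 4658 and 4287. For PVN over NTS the vehicle split, 4070 and 3994, turned to 3539 and 4469. With IP118/PY115 it kept its side, from 3997 and 4464 to 3593 and 4853. Depth limits Atf1 most, with 35 to 289 counts per library.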
